A study of Saccharomyces cerevisiae with 8 samples.

Results

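The 3 genes described here encode the water channels Aqy1 and Aqy2 and the glycerol channel Fps1 of baker's yeast, Saccharomyces cerevisiae. They were taken by name, each through its brightest probe set that a platform annotation assigns to that gene alone. Each had 1 such probe set, and all 3 passed the filter on dim probe sets, among 5188 genes tested of 5656 with a probe set of their own. Messenger RNA was read on 8 Affymetrix arrays, 2 for each of 4 freezing times, and the submitters describe the 2 as independent samples. Commercial compressed yeast, whose strain is not named in the labels, was brought to an OD600 of 30 in fermentation medium that lacked sucrose and maltose. The groups were kept at -20 °C for 0, 3, 7 or 14 days, and all 4, the 0 day group included, were thawed for 10 min at 30 °C before RNA was taken.

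Aquaporins are membrane channels of the major intrinsic protein family through which water passes along its osmotic gradient. When ice forms outside a cell, water is drawn out of it, and yeast made to produce more aquaporin is known to survive rapid freezing better. Fps1 is the family's glycerol facilitator. It releases glycerol when cells meet low osmolarity and closes at high osmolarity, and yeast without FPS1 is known to keep more glycerol inside and to withstand freezing better. Many yeast strains carry AQY1 or AQY2 alleles without a working protein, which an array of messenger RNA does not show.

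The arrays were unequal in overall brightness, with median deposited signals from 51.6 to 110, and were quantile normalised before comparison. Replicates correlated across genes at r = 0.877 at 0 days, 0.912 at 3 days, 0.938 at 7 days and 0.927 at 14 days. The ratio of ribosomal RNA signal to the median of its array was 8.85 and 6.76 for the 0 day arrays and 7.75 and 11.3 for those of 3 days. It was 17.1 and 22.7 for the 7 day arrays and 21.7 and 15.7 for those of 14 days. Each array reads a whole culture, so fewer cells with a transcript and less of it per cell cannot be told apart.

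None of the 3 channel genes lay near background. A probe set was taken as near background when its mean over the 8 arrays, or its value on an array, lay under the 25th percentile of all probe sets. The mean of AQY1 was above 80.5% of probe sets, that of AQY2 above 92.8% and that of FPS1 above 84.8%. AQY1 came closest on a single array, at percentile 61.3 on 0 day replicate 2. The deposited signals were also set against 9 control probe sets that read the antisense strand of bacterial and phage genes. On 0 day replicate 2, the signal of AQY1 was 87.3 and the brightest of these controls 49.2, a ratio of 1.78. The next lowest ratios were 3.16 for FPS1 and 3.17 for AQY1, both on 0 day replicate 1. For AQY2 the ratio was at least 9.68 on every array.

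**Figure D1:**
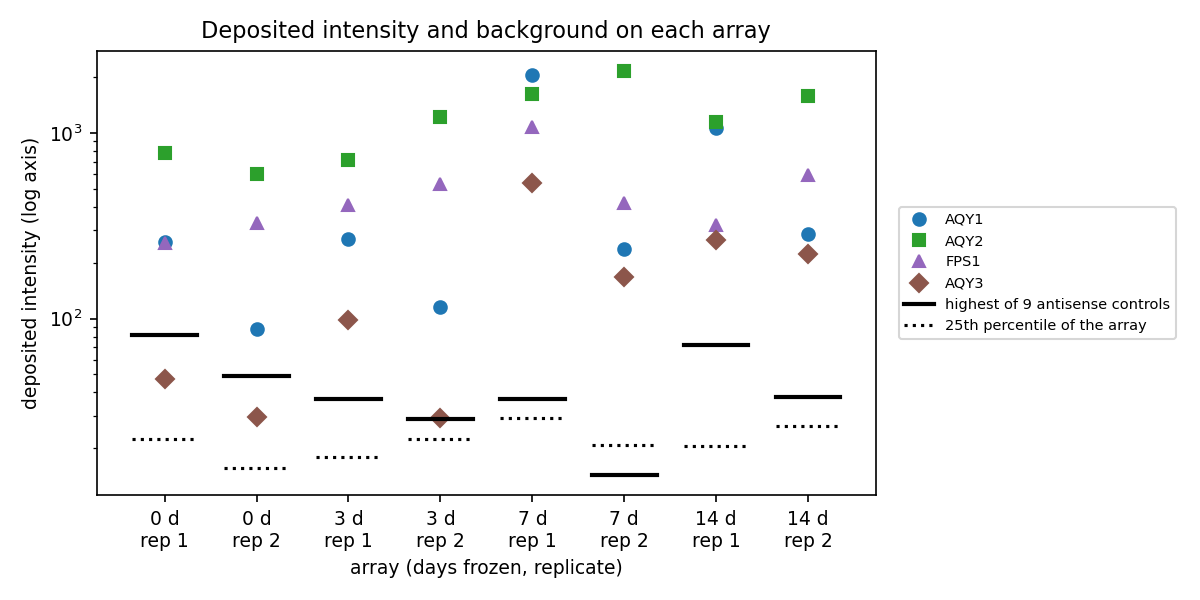
Deposited probe set intensity (log axis) of AQY1, AQY2, FPS1 and the related gene AQY3 on each of the 8 arrays, with the brightest of 9 antisense control probe sets (solid bars) and the 25th percentile of the array (dotted bars). AQY1, AQY2 and FPS1 lie above both bars on all arrays, while AQY3 lies under the solid bar on both 0 day arrays.

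Among the 3 genes, freezing time was associated with no change that passed the test. In 18 tests, 3 genes in all 6 pairs of times, limma called 0 at a Benjamini-Hochberg adjusted p under 0.05, and 0 had an unadjusted p under 0.05. Over all genes, 7.02%, 19% and 22.2% had an unadjusted p under 0.05 at 3, 7 and 14 against 0 days. The shares were 20.4% and 24.6% at 7 and 14 against 3 days, and 0.925% at 14 against 7 days. The smallest unadjusted p was 0.171, for AQY1 at 14 against 3 days, and no other tool was run. Over all genes, limma called 0% at 3 against 0 days, 0.212% at 7 against 0 days and 1.73% at 14 against 0 days. It called 1.2% at 7 against 3 days, 4.59% at 14 against 3 days and 0% at 14 against 7 days. The arrays of the paired times did not overlap in 1 of the 18 comparisons, FPS1 at 3 against 0 days. Among all genes they did not overlap in 35.2% at 3, 50.3% at 7 and 50.9% at 14 against 0 days. The shares were 55.1% at 7 and 57.1% at 14 against 3 days, and 26.4% at 14 against 7 days. An F test over the 4 times gave limma adjusted p = 0.578 for AQY1, 0.817 for AQY2 and 0.854 for FPS1, where 2.58% of all genes were called.

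**Figure D2:**
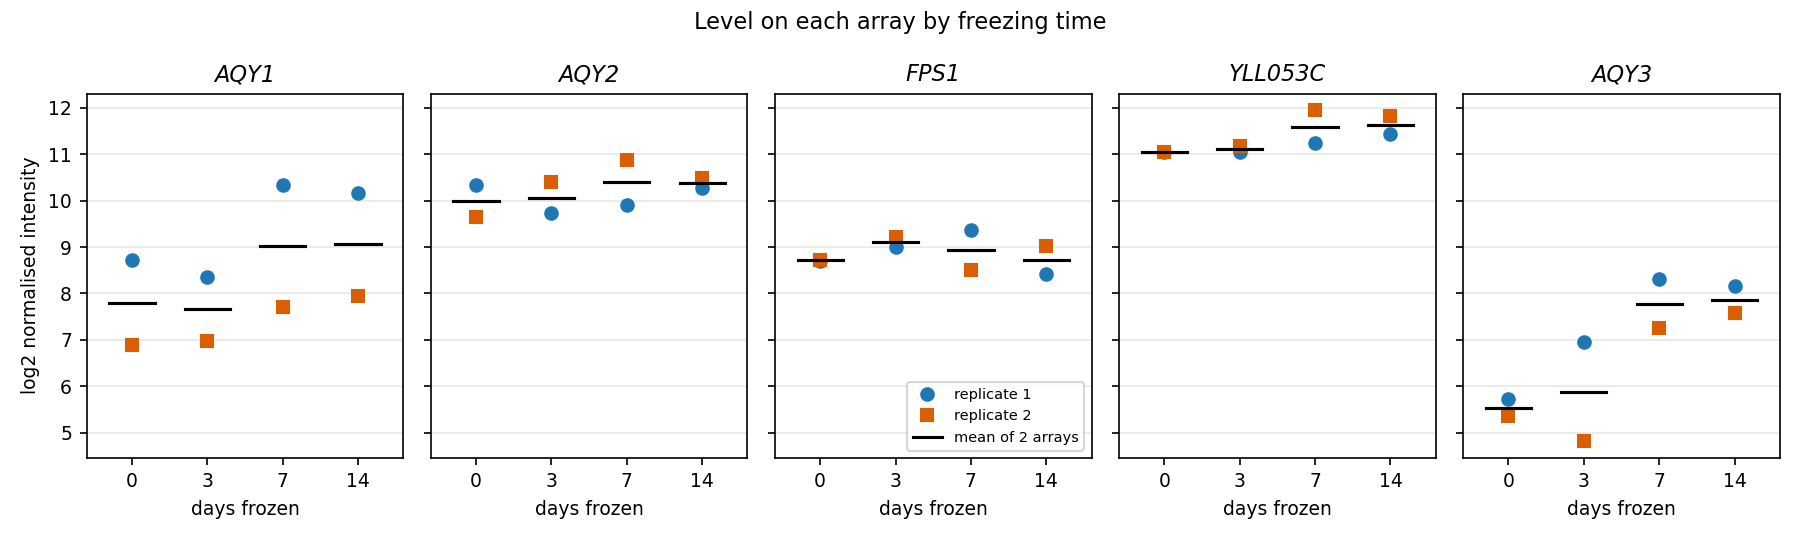
Log2 normalised intensity of AQY1, AQY2, FPS1, YLL053C and AQY3 on each array by days frozen, with replicate 1 as circles, replicate 2 as squares and the mean of the 2 arrays as a bar. Replicate 1 of AQY1 lies above replicate 2 at all 4 times, and the AQY2 and FPS1 arrays stay within 1.24 and 0.93 of one another.

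AQY1, which encodes a water channel best known from spores, had the widest spread of the 3. Its log2 level was 8.71 and 6.88 at 0 days (replicates 1 and 2), 8.36 and 6.97 at 3 days, 10.33 and 7.70 at 7 days, and 10.17 and 7.94 at 14 days. On the linear scale these are normalised signals of 420 and 118 at 0 days and of 1153 and 246 at 14 days. Replicate 1 was the brighter array at every time, and the groups overlapped in all 6 pairs. The 4 times averaged 7.80 ± 1.29, 7.67 ± 0.98, 9.02 ± 1.86 and 9.06 ± 1.58 at 0, 3, 7 and 14 days (SD, n = 2 each).

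After 14 days AQY1 stood 2.39-fold above 0 days (log2 difference 1.26 ± 0.95 SE, limma adjusted p = 0.459), with a 95% confidence interval from 0.561-fold to 10.2-fold. After 7 days it stood 2.33-fold above 0 days (1.22 ± 0.95 SE, limma adjusted p = 0.517). The interval admits a rise of over 10-fold as well as a fall, so no change of either kind was resolved. The largest step in the order of its means, from lowest to highest 3, 0, 7 and 14 days, lay between 0 and 7 days, and no neighbours in that order differed beyond their spread. At 3 days the value was -0.13, and it was above 0 on unnormalised values (0.23) and with equal array medians (0.06).

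The spread of AQY1 within times was among the largest on the arrays. Its pooled SD within a time was 1.46 on the log2 scale, above 98.1% of genes, whose median was 0.44. The SD of its 4 time means, 0.76, lay above 84.0% of genes. By the numbers of the labels, the differences from 0 days were 1.62 for replicate 1 and 0.82 for replicate 2 at 7 days, and 1.46 and 1.06 at 14 days. The labels do not say whether equal numbers share a culture.

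The 2 arrays of each time also differ in the signal of spiked poly(A) control transcripts. At each time the dimmer array by these controls was taken as set 1 and the brighter as set 2. Set 1 holds 0 day replicate 1 and replicate 2 of the other times, so at 0 days it crosses the replicate numbers. Within set 1, AQY1 differed from 0 days by -1.74 at 3 days, -1.01 at 7 days and -0.77 at 14 days. Within set 2 the differences were 1.48, 3.45 and 3.29. The sign of the AQY1 difference from 0 days thus depended on which 0 day array was set against which frozen array. The 0 day arrays were close in these controls (4.22 against 4.35), so their split into sets is weakly based, and no set effect is concluded from it. The brighter AQY1 array had the higher mean log2 signal of spiked controls at 3 days (5.70 against 3.96), 7 days (6.97 against 4.61) and 14 days (6.24 against 4.89), and the lower one at 0 days (4.22 against 4.35). The part of these controls in the AQY1 levels was not tested.

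AQY2, which encodes the water channel known mainly from growing cells, varied little between its time means but not within times. The SD of its 4 time means was 0.21, above 14.2% of genes. Its pooled SD within a time was 0.49, above 58.0% of genes. Its log2 level was 10.33 and 9.64 at 0 days, 9.74 and 10.40 at 3 days, 9.91 and 10.88 at 7 days, and 10.28 and 10.49 at 14 days. The highest array was 2.36-fold above the lowest, every pair of times overlapped, and neither replicate number was always the brighter. By array set, however, set 1 was the brighter at all 4 times, and the part of the sets in the AQY2 levels was not tested. The split of the 0 day arrays into sets is weakly based, and the share of all genes with this order was not computed. With the array set as a block, the SE at 14 against 0 days was 0.30 in place of 0.42 (limma adjusted p = 0.431). The means were 9.99 ± 0.49, 10.07 ± 0.47, 10.40 ± 0.68 and 10.39 ± 0.14 at 0, 3, 7 and 14 days (SD, n = 2 each).

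After 14 days AQY2 stood 1.32-fold above 0 days (log2 difference 0.40 ± 0.42 SE, limma adjusted p = 0.607), with a 95% interval from 0.697-fold to 2.50-fold. The values were 0.41 at 7 days (limma adjusted p = 0.623) and 0.08 at 3 days (0.966). Rises of more than 2.52-fold therefore lie outside the intervals at all 3 frozen times, and smaller ones do not. Within array sets 1 and 2 the differences from 0 days were 0.55 and 0.27 at 7 days and 0.16 and 0.64 at 14 days. In the order 0, 3, 14 and 7 days from lowest to highest, no neighbours differed beyond their spread. On unnormalised values AQY2 passed the test at 7 against 0 days (1.45, limma adjusted p = 0.0237), where the median of all genes was 0.98 and 1422 genes were called.

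YLL053C is the reading frame next to AQY2, and in strains with an intact channel the 2 frames are known to form 1 gene. Its log2 level was 11.06 and 11.04 at 0 days, 11.06 and 11.18 at 3 days, 11.24 and 11.95 at 7 days, and 11.44 and 11.82 at 14 days. All arrays of 7 and 14 days lay above all of 0 and 3 days, but the difference was not called (0.58 ± 0.31 SE at 14 against 0 days, limma adjusted p = 0.294). On unnormalised values it passed the test at 7 against 0 days (1.28, limma adjusted p = 0.0177). In that setting the median of all genes was 0.98 and 1422 genes were called. For the single pair of 14 against 0 days, in either direction, the groups did not overlap in 50.9% of all genes. The share of genes with the joint split seen in YLL053C was not computed. Over the 8 arrays, YLL053C and AQY2 correlated at Pearson r = 0.78, which placed YLL053C at rank 79 of 5187 genes. Both were brighter in array set 1 than in set 2 at all 4 times, YLL053C only narrowly at 0 days (11.06 against 11.04). The share of all genes with that order was not computed. The separate genes AQY1 and AQY3 correlated about as highly, at r = 0.77. AQY1 and AQY2, which are closely related genes, correlated at r = -0.10. Binding of a related transcript to either probe set was not tested.

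FPS1 was the steadiest of the 3. Its log2 level was 8.71 and 8.73 at 0 days, 8.99 and 9.22 at 3 days, 9.36 and 8.50 at 7 days, and 8.42 and 9.02 at 14 days. The 3 day arrays lay above both 0 day arrays, as in 35.2% of genes that do not overlap either way, and every other pair of times overlapped. The means were 8.72 ± 0.02, 9.11 ± 0.16, 8.93 ± 0.61 and 8.72 ± 0.42 at 0, 3, 7 and 14 days (SD, n = 2 each), and the SD of these means, 0.19, was above that of 10.2% of genes. The pooled SD of FPS1 within a time was larger, at 0.38, above 38.9% of genes.

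After 14 days the level of FPS1 differed from that at 0 days by 0.00 ± 0.40 SE on the log2 scale (limma adjusted p = 0.997), with a 95% interval from 0.540-fold to 1.86-fold. The differences were 0.39 at 3 days (limma adjusted p = 0.836) and 0.21 at 7 days (0.812). Within array sets 1 and 2 they were 0.51 and 0.26 at 3 days, -0.20 and 0.63 at 7 days, and 0.31 and -0.31 at 14 days. Changes beyond 2.42-fold upward lie outside the intervals at all 3 frozen times. In the order 0, 14, 7 and 3 days from lowest to highest, no neighbours differed beyond their spread.

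**Figure D3:**
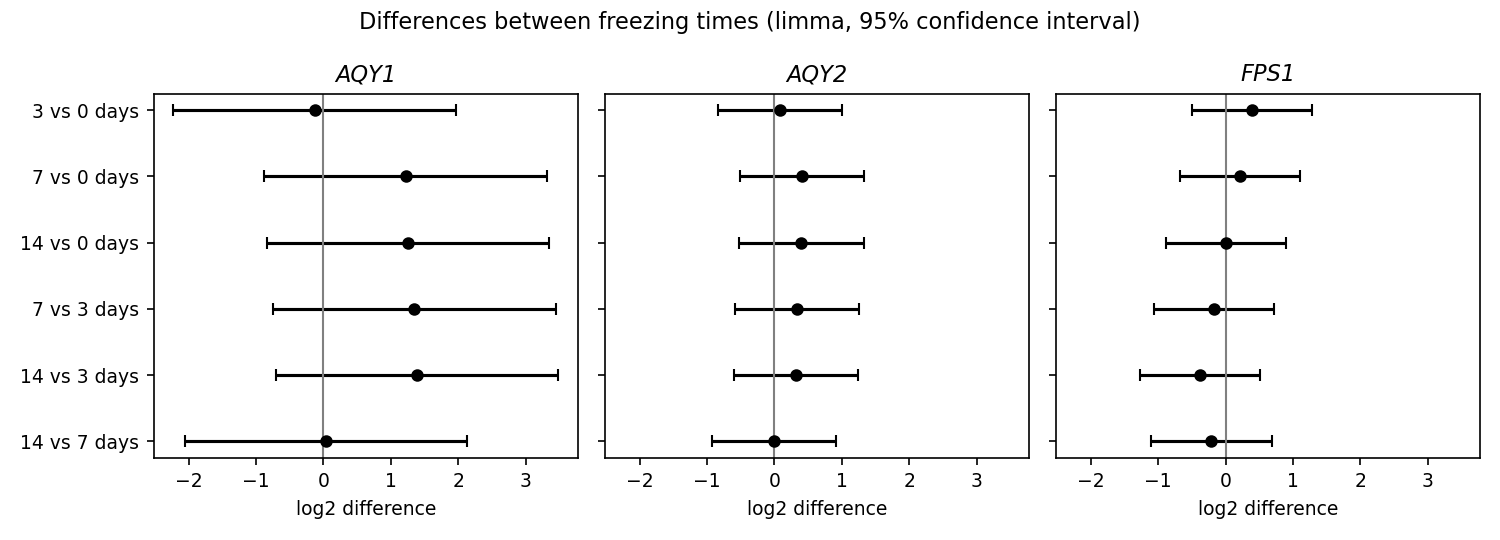
Log2 difference between freezing times for AQY1, AQY2 and FPS1 (points) with the 95% confidence interval of limma (bars), the first time of each pair minus the other. All 18 intervals include 0, and those of AQY1 are more than 2 times as wide as those of AQY2 and FPS1.

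The remaining relative in the reference genome is YFL054C, listed on the platform as AQY3, an aquaglyceroporin-like gene of unsettled function. Its log2 level was 5.72 and 5.36 at 0 days, 6.95 and 4.81 at 3 days, 8.32 and 7.25 at 7 days, and 8.16 and 7.57 at 14 days. Both 0 day arrays read it below the brightest antisense control, and all arrays of 7 and 14 days read it above. The log2 difference of 14 from 0 days was 2.33 ± 0.64 SE (limma adjusted p = 0.0845) and that of 7 from 0 days 2.24 ± 0.64 SE (0.126). With the 0 day arrays under that control, the size of these differences is not settled. The 14 day value passed the threshold in 3 of 19 alternatives, which were unnormalised values (limma adjusted p = 0.0195), the replicate block (0.0362) and the array set as a block (0.0441). These settings called 403, 158 and 222 of all genes, in that order, against 90 in the main fit. At 7 against 0 days AQY3 passed on unnormalised values (limma adjusted p = 0.00551). There the median of all genes was 0.98 and 1422 genes were called. The arrays of 7 and 14 days, on which AQY3 was highest, also had the highest ribosomal RNA ratios, whose part in its level was not tested.

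Several gene lists that bear on these channels were read beside them. Among 6 regulators of Fps1, limma called 0 in any comparison with 0 days, with 0, 1 and 1 at an unadjusted p under 0.05 at 3, 7 and 14 days, where all genes gave 7.02%, 19% and 22.2%. The list median at 14 days was 0.58, against 0.11 for all genes. RGC1, which with ASK10 (RGC2) holds Fps1 open, stood at 1.09 in that comparison (limma adjusted p = 0.218), and the cell integrity kinase SLT2 at 0.73 (0.359). Levels of RGC1 were 6.56 and 7.50 at 0 days and 8.11 and 8.12 at 14 days. HOG1, the kinase that acts on Fps1 in osmotic stress, stood at 0.12 (limma adjusted p = 0.896).

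Of 20 genes of the osmosensing pathway, limma called 0 in these comparisons, with 1, 3 and 2 at an unadjusted p under 0.05 at 3, 7 and 14 days (7.02%, 19% and 22.2% of all genes). The list median was 0.13 at 14 days. The mucin-like sensor MSB2 had the smallest p, at -1.86 (limma adjusted p = 0.0603), with levels of 6.63 and 6.28 at 14 days against 8.36 and 8.27 at 0 days. A related sensor, HKR1, stood at -1.22 (limma adjusted p = 0.125). The table assigns 8 probe sets to HKR1, of which 5 passed the filter, and their differences ran from -1.86 to 2.71, so its direction is not settled.

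Among 12 genes of glycerol synthesis, use and uptake, limma called 0 against 0 days, with 2, 4 and 4 at an unadjusted p under 0.05 at 3, 7 and 14 days (7.02%, 19% and 22.2% of all genes). The list median at 14 days was 0.86. The dehydrogenase GPD2 stood at -1.65 (limma adjusted p = 0.0887) and the glycerol importer STL1 at 1.93 (0.102). Against 3 days, STL1 rose in both later groups. Its log2 level was 3.93 and 4.74 at 3 days, 6.63 and 7.71 at 7 days, and 6.88 and 8.40 at 14 days. The rise was 2.84 ± 0.58 SE at 7 days (limma adjusted p = 0.0452) and 3.31 ± 0.58 SE at 14 days (0.0211), where 1.2% and 4.59% of all genes were called. These calls ended in 8 and 5 of 19 alternatives, among them without either array of the times compared. YPR1, an aldo-keto reductase, also rose at 14 against 3 days (2.22 ± 0.52 SE, limma adjusted p = 0.0408), a call that ended in 8 of 19 alternatives, among them without any 1 array of 3, 7 or 14 days. The 0 day levels of STL1, 5.53 and 5.90, lay between those of 3 days and the later times. The arrays of 0 and 3 days all read STL1 below the brightest antisense control, and 3 day replicate 1 lay under the 25th percentile, so the size of its rise is not settled. YPR1 was near that control at 3 days too, with deposited signals of 44.1 and 29.95, where the control read 36.9 and 28.8.

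AQY1 is known from spores, so 14 sporulation genes were read too. Of these, 7 lay below the filter on dim probe sets, among them the mid and late sporulation genes SPS4, SPR1, DIT1, DIT2 and SMK1, with means from 2.66 to 3.99 on the log2 scale. Of the other 7, limma called 0 against 0 days, with 0, 0 and 1 at an unadjusted p under 0.05 at 3, 7 and 14 days (7.02%, 19% and 22.2% of all genes). That gene was NDT80, the activator of mid sporulation genes, at -2.07 (limma adjusted p = 0.121), with levels of 3.71 and 3.99 at 14 days against 5.82 and 6.02 at 0 days. All 4 of these arrays read NDT80 below the brightest antisense control, and both 14 day values lay under the 25th percentile, so the size of this difference is not settled. The spore wall gene SPS100 stood at 1.31 (limma adjusted p = 0.236).

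**Figure D4:**
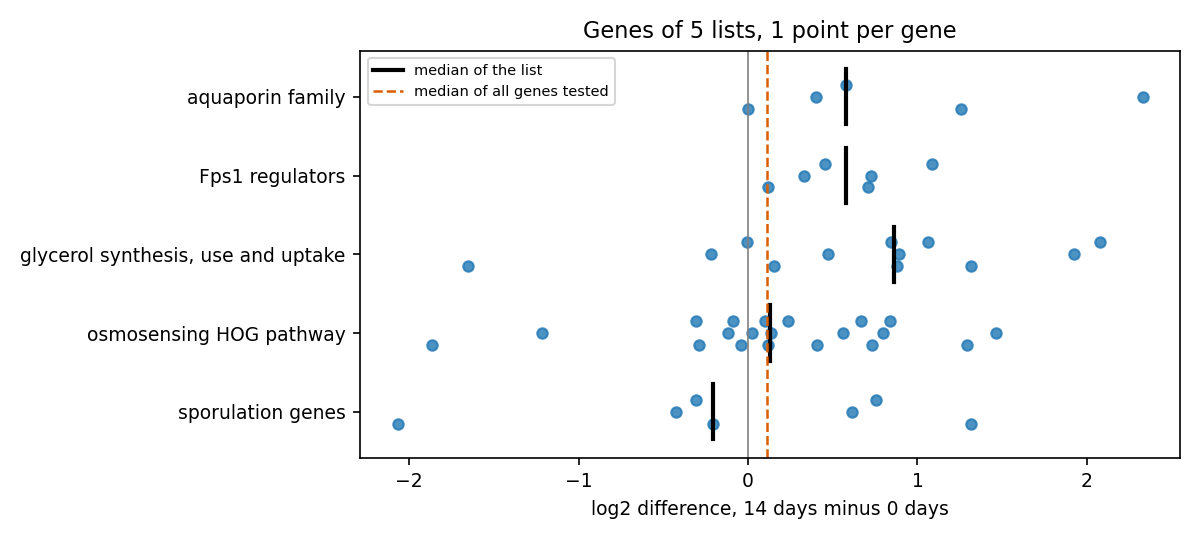
Log2 difference of 14 from 0 days for the genes of 5 lists, 1 point per gene past the filter, with the list median (black bar) and the median of all genes tested (dashed line, 0.11). List medians run from -0.21 for sporulation genes to 0.86 for glycerol genes, and limma called 0 of the genes shown.

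The genes with a pattern most like that of each channel gene were found by Pearson's r of the log2 levels over the 8 arrays, among 5187 genes. Such r are highest of many and rest on arrays that share their times, so they describe these arrays only. For AQY1 the nearest were ACS1 (acetyl-CoA synthetase, r = 0.982), YAT1 (a carnitine acetyltransferase, r = 0.981) and EMI2 (a hexokinase-like protein, r = 0.979). ACS1 read 10.59 and 9.06 at 0 days and 11.82 and 9.42 at 14 days, with replicate 1 above replicate 2 as in AQY1. All 3 genes, picked for their likeness to AQY1, shared that order at all 4 times, by 1.01 to 2.40 on the log2 scale. Replicate 1 was the higher at all 4 times in 8.91% of all genes.

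GUT2, the mitochondrial glycerol 3-phosphate dehydrogenase, and SPS100 were singled out among the listed genes after their values were seen. SPS100 was at rank 10 (r = 0.960) and GUT2 at rank 15 (r = 0.952) in likeness to AQY1. The other sporulation genes past the filter did not share this likeness, with r from -0.22 (SSP1) to 0.49 (SPR3). The other genes of the glycerol list ran from -0.27 (GPD2) to 0.79 (GUT1). In GUT2, replicate 1 exceeded replicate 2 by 1.56, 0.81, 1.97 and 1.65 at 0, 3, 7 and 14 days. GUT1, the glycerol kinase, was at r = 0.79, with replicate 1 the lower at 0 days.

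**Figure D5:**
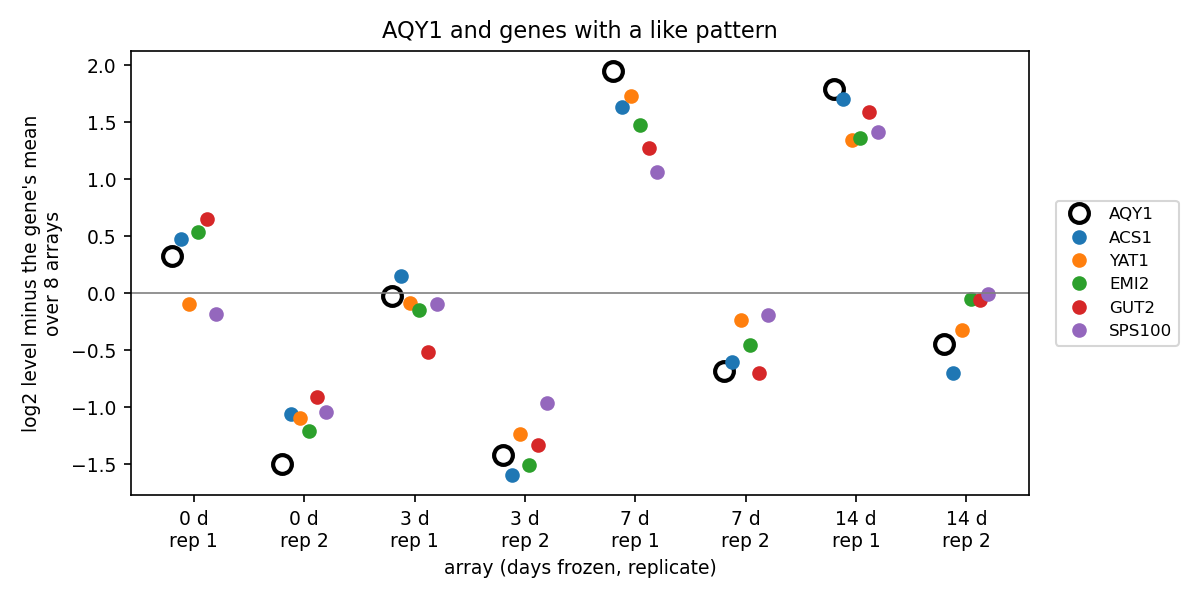
Log2 level minus the gene's own mean over the 8 arrays for AQY1 (open circles) and for ACS1, YAT1, EMI2, GUT2 and SPS100, by array in order of days frozen and replicate. Replicate 1 lies above replicate 2 at all 4 times in all 6 genes, which are AQY1 and genes shown for their likeness to it, and in 8.91% of all genes.

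For AQY2 the nearest genes were NHX1 (an endosomal sodium/proton exchanger, r = 0.943), YGR016W (r = 0.940) and SLC1 (an acyltransferase of phospholipid synthesis, r = 0.937). YGR016W was dim, with log2 levels of 3.31 on 0 day replicate 2, 2.48 on 3 day replicate 1 and 3.85 on 7 day replicate 1. These lie under the cut of 4.16 set for gene means, so its r rests partly on dim signals. NHX1 read 8.51 and 7.93 at 0 days, 7.83 and 8.38 at 3 days, 7.86 and 8.74 at 7 days, and 8.21 and 8.58 at 14 days. As in AQY2, replicate 1 was the brighter at 0 days and replicate 2 at the other times, which are the arrays of set 1. NHX1 was picked for its likeness to AQY2 on these arrays, so the shared order adds nothing to the r. The part of the array sets in it was not tested. For FPS1 the nearest were VMA4 (a subunit of the vacuolar proton ATPase, r = 0.897), PML39 (a nuclear pore-associated protein, r = 0.866) and LIA1 (deoxyhypusine hydroxylase, r = 0.839).

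The genes beside the channel genes on the chromosome were read as well. AQY1 lies between QCR2, a subunit of respiratory complex III, and the acetyltransferase gene HPA2. QCR2 stood at 1.48 (limma adjusted p = 0.111) and HPA2 at 1.04 (0.417) at 14 against 0 days. OPT2, the oligopeptide transporter gene beyond HPA2, fell by 2.97 at 14 days (limma adjusted p = 0.0155), where AQY1 stood at 1.26. On the other side of AQY2 from YLL053C, the metal reductase FRE6 stood at -0.65 (limma adjusted p = 0.444). Beside FPS1, the autophagy gene ATG10 stood at 0.71 (limma adjusted p = 0.382), and RPL8B had no probe set of its own.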

How the data were processed

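The authors deposited 1 probe set intensity per array on a linear scale. How probes were summarised and scaled is not given in the sources used here. Of 9335 probe sets, 60 controls were removed. A platform annotation gave 1 gene to 6504 of the rest, several to 328 and none to 2443. Symbols and neighbouring genes were checked against RefSeq R64, and 0 symbols changed. Array means differed by 2.03-fold, so arrays were quantile normalised. Values under the pooled 5th percentile (2.52) were raised to it, log2 was taken, and probe sets averaging below the 25th percentile (4.16) were left out. Each gene was read by its brightest probe set. The test was limma 3.58.1 under R 4.3.3, with 1 coefficient per time on all 8 arrays (4 residual degrees of freedom), trended empirical Bayes and two-sided p-values adjusted by Benjamini-Hochberg over 5188 genes. The number of arrays limits the precision, and the median SE at 14 against 0 days was 0.45. The fit was checked on simulated data. Alternatives covered normalization, filter, floor, probe sets, samples in the fit, variance model, array weights, blocks and each array left out.

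The genes, lists and settings were chosen with earlier results of these data known. Named genes are the 3 channel genes, their relatives, the 3 genes most alike to each, the 2 neighbours on each side (some given here), and of each list up to 3 called genes or the 2 of smallest p at 14 days. HOG1, ASK10, GUT1, GUT2, and STL1 and YPR1 against 3 days, were named after their values were seen.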

Additional observations from a re-analysis of the deposited data

How the results depend on the processing

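Each of the 18 differences of AQY1, AQY2 and FPS1 was recomputed under 19 alternatives. Adjusted p for AQY1 ran from 0.0517 to 0.984 at 7 and from 0.0886 to 0.968 at 14 against 0 days. Of the 342 values, 316 kept the direction and the side of the threshold, 25 changed direction, 19 of them on leaving out an array, and 1 passed the threshold. That was AQY2 at 7 against 0 days on unnormalised values (1.45). On unnormalised values AQY1 was at 0.23 for 3 against 0 days and -0.34 for 14 against 7 days, and FPS1 at 0.53 for 7 against 3 days. With equal array medians these were 0.065, -0.096 and 0.026. With 1 array left out, the lone array is taken to vary like the others. AQY1 then ran from -1.04 to 0.80 at 3, from -0.10 to 2.52 at 7 and from 0.15 to 2.39 at 14 against 0 days, and from -1.27 to 1.36 at 14 against 7 days. The lowest 7 day value came without 7 day replicate 1. AQY2 ran from -0.26 to 0.42 at 3, and from -0.071 to 0.93 at 7 against 0 days, from -0.15 to 0.85 at 7 and from -0.011 to 0.64 at 14 against 3 days, and from -0.52 to 0.48 at 14 against 7 days. FPS1 ran from -0.22 to 0.62 at 7 and from -0.29 to 0.30 at 14 against 0 days, from -0.61 to 0.25 at 7 against 3 days and from -0.62 to 0.22 at 14 against 7 days. AQY3 at 3 against 0 days ran from -0.73 to 1.43. The cause of these shifts was not tested. With the replicate block, the SE of AQY1 was 0.39 in place of 0.95. Its limma adjusted p was then 0.122 at 7 and 0.0886 at 14 against 0 days (1.22 and 1.26). Against 3 days it was 0.0797 at 7 and 0.0561 at 14 days (1.35 and 1.39). Unadjusted limma p ran from 0.0049 to 0.0105 in these comparisons, against 0.171 to 0.226 without the block. The block changed no call of the 3 genes. Deviations of equal numbers correlated across genes at 0.18, 0.19 and 0.29 among the 3 pairs of 3, 7 and 14 days, and at -0.09, 0.09 and 0.05 between 0 days and 3, 7 and 14 days. The labels state no pairing, so the arrays were not treated as paired. Over all genes, calls at 14 against 0 days numbered 158 with the block against 90, and from 0 to 403 over the alternatives.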

Other observations

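The steady order of the AQY1 replicates was looked at after its values were seen. In 18 of 5188 genes (0.347%), replicate 1 lay more than 1 above replicate 2 on the log2 scale at all 4 times, and in 0 genes did replicate 2 lie that far above replicate 1. Besides AQY1, ACS1, YAT1 and EMI2, the 18 include PGM2 (phosphoglucomutase), GAD1 (glutamate decarboxylase), TDH1 (glyceraldehyde 3-phosphate dehydrogenase), PRB1 (vacuolar protease B) and STF2. In PGM2 replicate 1 was higher by 2.92, 4.66, 2.40 and 1.48 at 0, 3, 7 and 14 days, and in AQY1 by 1.83, 1.39, 2.63 and 2.23. The labels do not say what replicates of equal number share.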
